A study of Mus musculus with 18 samples.

Results

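Of 18 colon RNA libraries, 5 held transcripts of cartilage, and they are described here against the other 13. The 5 were chosen by one measured value, the level of Col2a1, the gene for the main collagen of cartilage. A library was a member where Col2a1 reached 10 CPM (counts per 1e6 counts of that library). Because a measured value chose the libraries, no test of the 5 against the 13 is given, and their differences are descriptions. The study sequenced colon tissue of ICR mice, an outbred laboratory strain, after 44 days of a compound Suanzoren capsule made with jujube kernel, of Jinhua Hecha, a fermented green tea, or of saline. Capsule and tea were given into the stomach. Each treatment had 3 libraries in each of the sets C and X, letters in the titles that the labels leave unexplained. No genotype other than the strain, no sex and no age is labelled, and nothing ties the libraries to single mice. The design text gives 3 mice per treatment while there are 6 libraries. Sex-linked transcripts, given below, split set C from set X, so a mouse could be shared only within a set. Some libraries of a set may share a mouse, and p-values measure only how these libraries spread, which can be partly technical.

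The members were FFZRX_139, NCC_2, NCC_8, NCC_17 and NCX_124, named by the codes in their titles: FFZR is capsule, JHHCG tea and NC saline, then comes the set and the library's number. They were thus 1 of 6 capsule libraries, 0 of 6 tea libraries and 4 of 6 saline libraries. By set they were 3 of 9 libraries in set C, all of them saline, and 2 of 9 in set X. Col2a1 had 77.3 CPM in FFZRX_139, and 81.5, 83.2, 81.4 and 87.3 CPM in NCC_2, NCC_8, NCC_17 and NCX_124. The nearest value below the threshold was 0.314 CPM in FFZRC_5, and the other 12 libraries had no count of it. No library lay near the threshold. On the mouse build GRCm38, the deposited table places Col2a1 at chr15:97975602-98004695, Lep at chr6:29060220-29073877 and Hp at chr8:109575128-109579172.

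Several tissues named below have gene programmes that the colon wall does not normally run. Chondrocytes build a matrix of collagens of types II, IX and XI around the proteoglycan aggrecan. Fat cells store triglyceride in droplets coated by perilipins and release the hormones leptin and adiponectin. Alveolar cells of the lung secrete surfactant, and club cells of the airway secrete the protein of the gene Scgb1a1. The colon itself also contains fat on its outer surface, so fat transcripts alone do not mark another organ. In bulk tissue RNA, fewer cells of a type and less RNA per cell cannot be told apart.

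The libraries of both kinds carried the colon's own genes. The summed level of 17 colon epithelium genes was 15919 to 25829 CPM in the 5 and 11079 to 25246 CPM in the 13. For 8 smooth muscle genes it was 4542 to 8542 CPM in the 5 and 2996 to 32383 CPM in the 13, and each of the 8 had a smaller mean in the 5. Of all genes with a mean of 1 CPM or more in either, 69.3% had a larger mean in the 5. Total counts ran from 59206980 to 61800862 in the 5 and from 61495934 to 76830278 in the 13. Mitochondrially encoded genes took 6.02% to 14.8% of the counts in the 5, highest in NCC_17, and 5.48% to 24.9% in the 13. Libraries of the same group differed far beyond counting noise, with a chi-square per degree of freedom of 66.5 or more in all 18 such pairs and of 119.8 or more in the 10 pairs among the 5.

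A gene was counted as higher where the lowest of the 5 libraries lay above the highest of the 13, and where the mean of the 5 was at least 1 CPM and at least 4-fold the mean of the 13. Of 33977 genes, 116 were higher, which is 0.341% of all genes, and only Sprr2b was lower by the mirrored rule, 0.00294% of all genes. Col2a1 is one of the 116 by the choice of libraries. Together the 116 genes held 0.354% to 0.411% of the counts in the 5, against 0.0156% to 0.0954% in the 13. Among 35 lists of genes typical of other tissues, 11 held at least 1 higher gene and 24 held none. The lists hold 41 of the 116 genes, and the other 75 belong to none of them.

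The same rule was applied to subsets. A gene without overlap over all libraries has none in a subset, so only the limits on mean and fold could drop one. How many of the 116 were found again in a subset is thus largely fixed by their choice. Within set X, with 2 members and 7 other libraries, 224 genes were higher, and 110 of the 116 were among them. Among saline libraries only, with 4 members and 2 others, 611 were higher, and 103 of the 116 were among them. In set C all members were saline and all others were not, so membership and treatment cannot be told apart there. With the deposited FPKM values 72 genes were higher, 69 of them among the 116.

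**Figure D1:**
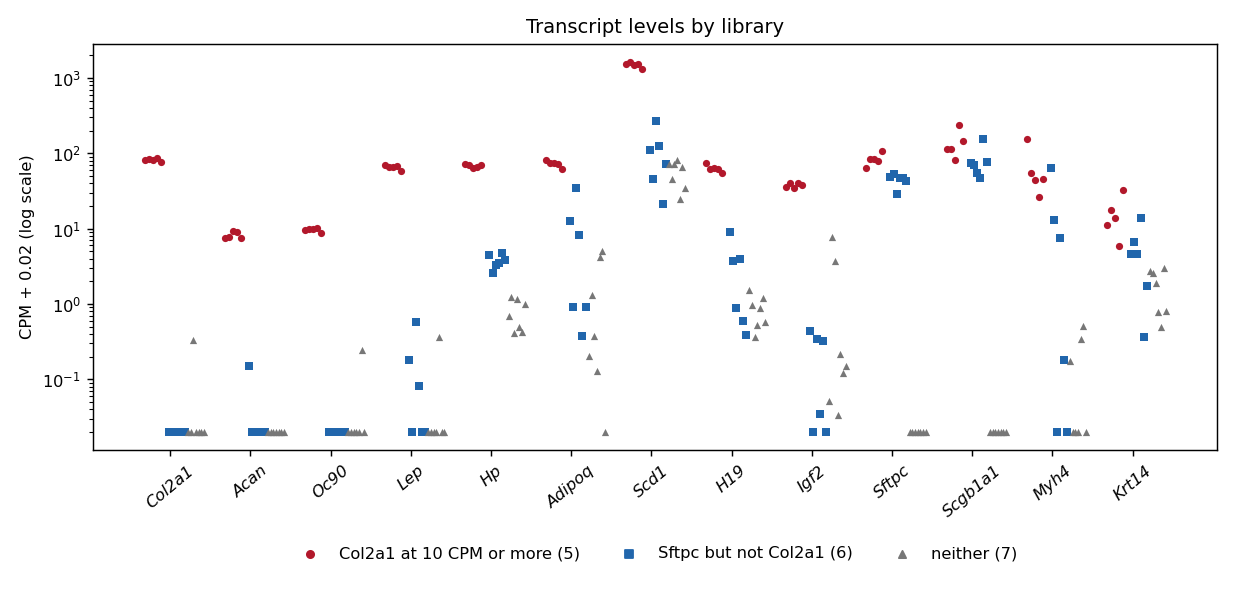
Level of 13 genes in each library, in CPM plus 0.02 on a log scale, with the 5 libraries left (red circles), then 6 libraries with Sftpc at 10 CPM or more but no such Col2a1 (blue squares), then 7 with neither (grey triangles). Points at the bottom edge are libraries with no count, and Col2a1, Acan, Oc90, Lep and Hp leave a wide gap between the 5 and the rest that Scgb1a1, Myh4 and Krt14 do not.

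Of 23 cartilage genes, 10 were higher, Col2a1 among them. A larger mean in the 5 than in the 13 was seen for all 23, and for 69.3% of all 16221 genes with a mean of 1 CPM or more in either. The summed level of the list was 259 to 310 CPM in the 5, or 178 to 223 CPM without Col2a1, and 24.6 to 98.7 CPM in the 13. In the 13, 11 of the 23 genes still reached a mean of 1 CPM, so the list is not silent in colon.

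The collagen partners of Col2a1 were high in the same libraries. Col9a1, which encodes a chain of type IX collagen on the surface of the type II fibril, had 16.4 CPM in FFZRX_139 and 18.7, 19.4, 18.9 and 20.8 CPM in NCC_2, NCC_8, NCC_17 and NCX_124. In the 13 it was at or below 0.343 CPM, and 7 of them had none. Col11a1, a chain of the type XI collagen inside the fibril, had 21.3 CPM in FFZRX_139 and 22.4, 21.8, 23.5 and 24.4 CPM in the 4 saline libraries, against at most 4.39 CPM in the 13. The groups did not overlap for either gene. Col11a2 averaged 21.2 ± 3.01 CPM (SD, n = 5) and Col9a3 had 10.9 to 12.9 CPM in the 5, against highest values of 6.44 and 1.40 CPM in the 13.

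Genes of the cartilage matrix outside the fibril followed. Acan, which encodes aggrecan, had 7.49 CPM in FFZRX_139 and 7.47, 7.73, 9.32 and 8.99 CPM in the 4 saline libraries, and 12 of the 13 had no count. Matn1, matrilin of cartilage, averaged 6.78 ± 0.719 CPM and Cnmd, chondromodulin, 5.53 ± 0.683 CPM in the 5 (SD, n = 5). Col10a1, the collagen of hypertrophic cartilage next to forming bone, averaged 7.55 ± 0.916 CPM in the 5, against at most 0.111 CPM in the 13. Acan, Matn1 and Cnmd were at or below 0.190 CPM in each of the 13. Sox9, the transcription factor of chondrocytes that intestinal crypts also use, overlapped, at 15.3 to 56.3 CPM in the 5 and 2.94 to 64.1 CPM in the 13.

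Bone was represented by 1 higher gene of 14. Ibsp, integrin-binding sialoprotein of mineralized matrix, had 5.32 CPM in FFZRX_139 and 4.82, 4.99, 3.88 and 5.37 CPM in the 4 saline libraries, against at most 0.174 CPM in the 13. Bglap, which encodes osteocalcin of mature osteoblasts, had 0.647 to 2.99 CPM in the 5 and up to 5.59 CPM in the 13, so it did not separate them.

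Transcripts of the inner ear accompanied those of cartilage. Of 9 inner ear genes, 5 were higher: Otor, Oc90, Tecta, Otog and Tectb. Oc90, the main protein of the crystals that sense gravity, had 8.83 CPM in FFZRX_139 and 9.53, 9.73, 9.999 and 10.05 CPM in NCC_2, NCC_8, NCC_17 and NCX_124. In the 13 the highest value was 0.227 CPM and 12 had none. Otor, which encodes otoraplin, a secreted protein of the cochlea, had 8.96 CPM in FFZRX_139 and 12.7, 11.02, 8.11 and 8.99 CPM in the 4 saline libraries. It was also found in each of the 13, at 0.174 to 3.07 CPM. Tecta and Tectb, proteins of the membrane above the hair cells, averaged 3.57 ± 0.417 and 1.08 ± 0.279 CPM in the 5 (SD, n = 5), against at most 0.201 and 0.0652 CPM in the 13. Pou3f4 and Tbx18, transcription factors active in the developing ear and in other embryonic tissue, were also higher at 1.58 and 2.56 CPM in the 5; both were chosen after their values were seen.

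Fat genes also separated the 5 libraries. Of 18 fat genes, 9 were higher: Fabp4, Plin4, Cidec, Adipoq, Lipe, Lep, Plin1, Retn and Thrsp. The summed list was 1047 to 1305 CPM in the 5 and 172 to 726 CPM in the 13. Of the 18 genes, 13 reached a mean of 1 CPM in the 13, so a fat signal was present there too.

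Lep, the gene for leptin, had 58.3 CPM in FFZRX_139 and 69.3, 66.6, 66.1 and 67.5 CPM in NCC_2, NCC_8, NCC_17 and NCX_124. In the 13 the highest value was 0.556 CPM, in JHHCGC_7, and 9 had none. Adipoq, the gene for adiponectin, had 61.8 CPM in FFZRX_139 and 82.5, 73.3, 74.0 and 72.9 CPM in the 4 saline libraries, against 0 to 34.0 CPM in the 13. The gap between the groups was wide for Lep and narrow for Adipoq.

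The ratio of the 2 hormones separated the libraries. There were 0.841 to 0.943 Lep counts for each Adipoq count in the 5. The 4 other libraries with Adipoq at 5 CPM or more had 0 to 0.0163. JHHCGC_7, which had the most Adipoq of the 13, held 38 counts of Lep, with 108 CPM of Fabp4 and 12.4 CPM of Plin1. Cfd, the adipocyte protease adipsin, was higher in JHHCGC_7 at 135 CPM than in any of the 5, whose highest value was 80.4 CPM.

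Genes of fatty acid synthesis and uptake were among the 116. Scd1, a desaturase that makes monounsaturated fatty acids, had 1323 CPM in FFZRX_139 and 1538, 1604, 1501 and 1530 CPM in the 4 saline libraries, against 21.0 to 269 CPM in the 13. Its level per gene length was 284 FPKM in the 5, the highest of the named genes that were higher; FPKM is counts per kilobase of gene and per 1e6 counts. Car3, the carbonic anhydrase of fat and muscle, had 83.4 FPKM, Sftpc 74.5 FPKM, Adipoq 48.8 FPKM, Lep 18.1 FPKM and Col2a1 8.23 FPKM. Lpl, lipoprotein lipase, averaged 200.4 ± 12.3 CPM and Cd36, a fatty acid transporter, 109 ± 4.85 CPM in the 5 (SD, n = 5). In the 13 the highest values were 37.1 CPM for Lpl and 30.2 CPM for Cd36.

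Of the 20 genes named outside the lists, several are also known from fat cells. Trarg1, a regulator of glucose transporter traffic, averaged 21.1 ± 1.72 CPM, Aqp7, a glycerol channel, 5.94 ± 0.636 CPM, and Pnpla3, a lipid droplet enzyme, 6.58 ± 0.825 CPM in the 5 (SD, n = 5). Their highest values in the 13 were 3.60, 1.42 and 0.775 CPM. Acsl1, Npr3, Prkar2b, Abcd2, Aldh1a7, Sfrp5, Slc36a2, Slc7a10, Ntrk2, Mme, Glb1l2, Pcolce2 and Serpina3c were the others, with means of 6.46 to 104 CPM in the 5. Ucp1, the uncoupling protein of brown fat, had none in the 4 saline libraries and 0.129 CPM in FFZRX_139, against up to 1.12 CPM in the 13.

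Hp, haptoglobin, which liver and fat release into plasma, had 70.8 CPM in FFZRX_139 and 71.1, 69.5, 63.2 and 65.4 CPM in NCC_2, NCC_8, NCC_17 and NCX_124. In the 13 it ran from 0.388 to 4.72 CPM, and the groups did not overlap. It was the single higher gene among 22 liver and plasma genes. Alb, albumin, the most abundant liver product, had 2.24 to 13.7 CPM in the 5 and up to 12.2 CPM in the 13. Apoa1, an apolipoprotein of liver and gut, was at or below 1.42 CPM in the 5. Orm1, another plasma protein, averaged 4.66 ± 0.604 CPM in the 5 (SD, n = 5) and was chosen after its value was seen.

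Of 11 genes of the embryo or under parental imprinting, 4 were also higher: H19, Igf2, Mest and Zim1. The tissue that these transcripts came from was not tested. H19, an imprinted noncoding RNA abundant before birth, had 54.9 CPM in FFZRX_139 and 74.9, 60.8, 64.4 and 62.1 CPM in the 4 saline libraries, against 0.344 to 8.96 CPM in the 13. Igf2, the growth factor gene next to H19, had 37.8 CPM in FFZRX_139 and 35.1, 40.7, 35.1 and 40.2 CPM in the 4 saline libraries, against 0 to 7.82 CPM in the 13. Mest, another imprinted gene, averaged 33.7 ± 3.52 CPM in the 5 and reached 16.2 CPM in the 13. Meg3 and Cdkn1c overlapped between the groups, at 30.8 to 68.7 CPM for Meg3 and 7.71 to 15.5 CPM for Cdkn1c in the 5, and up to 179 and 16.01 CPM in the 13. Myh8, the perinatal myosin of skeletal muscle, averaged 2.37 ± 0.441 CPM in the 5 (SD, n = 5) and was at or below 0.146 CPM in the 13; it was chosen after its value was seen.

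Lung transcripts were found in the 5 but not in them alone. Of 21 lung genes, 5 were higher: Sftpc, Sftpb, Cxcl15, Bpifa1 and Nkx2-1. Sftpc, surfactant protein C of alveolar cells, had 107 CPM in FFZRX_139 and 64.0, 83.2, 83.0 and 78.4 CPM in NCC_2, NCC_8, NCC_17 and NCX_124. Another 6 libraries had 28.9 to 53.0 CPM of it, and the remaining 7 had none. The 6 were JHHCGC_7, JHHCGC_19, JHHCGC_48, FFZRX_238, FFZRX_268 and JHHCGX_129.

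Among 11 lung genes with a mean of 5 CPM or more in the 5, the mean of the 5 was 0.614 to 2.62 times that of the 6, with a median of 1.82. The lowest ratios were 0.614 for Napsa and 0.632 for Slc34a2, which also had medians of 11.7 and 170 CPM in the 7 libraries without Sftpc. Sftpc, Sftpb, Sftpd, Scgb1a1 and Cxcl15 had a median of 0 CPM in those 7. Their ratios were 1.86, 2.17, 2.62, 1.75 and 2.25. The genes Sftpc, Sftpb, Ager and Cxcl15 were above all 6 in each of the 5. Scgb1a1 had 146 CPM in FFZRX_139 and 113, 115, 82.1 and 235 CPM in the 4 saline libraries, and 46.7 to 153 CPM in the 6, so it overlapped. There were 0.989 to 3.00 counts of Scgb1a1 for each count of Sftpc in the 5 and 0.989 to 3.21 in the 6. Lep, Col2a1 and Oc90 were at or near 0 in the 6, with a highest value of 0.556 CPM.

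Of 8 genes of the mouth and oesophagus, Krt6a, Krt16 and Krt6b, keratins of stratified epithelium under stress, were higher. Krt6a had 14.7 CPM in FFZRX_139 and 4.53, 5.13, 5.40 and 3.18 CPM in the 4 saline libraries, against at most 1.65 CPM in the 13. Sprr1b, a protein of the cornified envelope, averaged 2.32 ± 0.370 CPM in the 5 (SD, n = 5) and had no count in any of the 13. It was at least 51.9-fold higher in the 5, taking 3 counts in each of the 13 as the limit that a count of 0 allows, for counting error only. Sprr1b was chosen after its value was seen. None of the 18 epidermis genes was higher.

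The related gene Sprr2b was the single gene lower in the 5. It had 1.62 CPM in FFZRX_139 and 2.91, 1.09, 2.20 and 3.85 CPM in the 4 saline libraries, against 7.17 to 69.0 CPM in the 13.

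Amy1, the salivary amylase that liver also makes, averaged 9.26 ± 0.691 CPM in the 5 and reached 3.98 CPM in the 13. Tshr, the thyrotropin receptor of thyroid and fat, averaged 2.93 ± 0.787 CPM (SD, n = 5 each). Each was the single higher gene of its list. No gene was higher on the lists for skeletal muscle, heart, hair, brain, kidney, pancreas, stomach, testis, ovary, thymus, bone marrow or red blood cells.

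**Figure D2:**
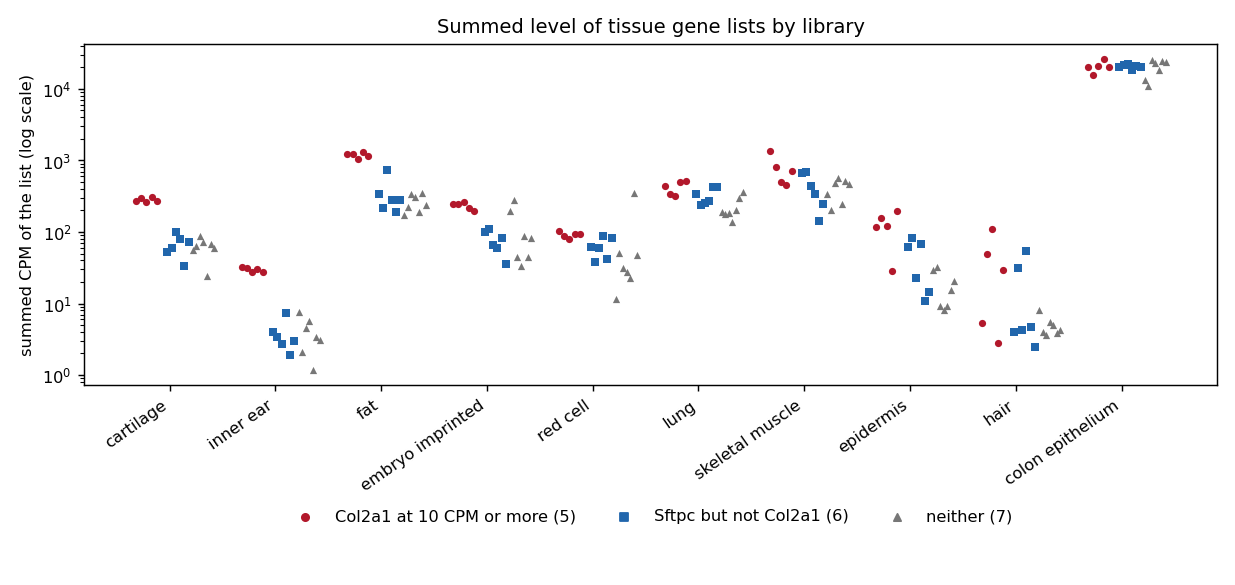
Summed CPM of 10 gene lists in each library on a log scale, with the 5 libraries left (red circles), then the 6 libraries with Sftpc (blue squares), then the 7 with neither (grey triangles). The cartilage, inner ear and fat sums of the 5 sit close together above all others, while the skeletal muscle, epidermis and hair sums of the 5 spread over 452 to 1379, 28.9 to 199 and 2.81 to 111 CPM.

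How constant the levels were among the 5 depended on the tissue. The coefficient of variation (CV) is the SD over the 5 libraries as a percentage of their mean. It was 4.45% for Cd36, 5.09% for Oc90, 5.18% for Hp and 6.49% for Lep, and 4.40% for Col2a1, the gene that chose the libraries. Of 30 listed genes that were higher with a mean of 5 CPM or more, the median CV was 10.5%, the range was 4.40% to 87.5%, and 12 were below 10%. Without Col2a1 the median over the other 29 was 10.6%. Counting error alone would give a median of 2.88% over the 30. The same median was 21.3% over all 12094 genes with a mean of 5 CPM or more, 45.9% over 17 colon epithelium genes and 26.0% over 8 smooth muscle genes.

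The choice of genes without overlap favours a low CV, so whole lists are also given, with no selection on the 13. Over members with a mean of 5 CPM or more, the median CV was 12.1% for 13 cartilage genes, or 12.2% for 12 without Col2a1, 11.8% for 15 fat genes and 16.2% for 6 embryonic or imprinted genes. It was 42.5% for 11 lung genes, 57.1% for 8 epidermis genes and 78.9% for 17 skeletal muscle genes. The 11 lung genes include some also found without Sftpc, such as Slc34a2 and Napsa, with medians of 170 and 11.7 CPM in those 7 libraries. The part of such genes in the lung value was not tested. Among higher genes only, the median CV was 30.2% for 3 lung genes and 10.6% for 9 cartilage genes. Over all 119 genes of the other-tissue lists it was 39.1%. For the summed lists the CV was 7.41% for inner ear, 7.62% for cartilage, or 9.33% without Col2a1, 8.46% for fat, 21.96% for lung, 47.9% for skeletal muscle and 112% for hair.

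Scaling changed the size of these spreads. With TMM-scaled CPM, which sets the bulk of all genes equal between libraries, the median CV of the higher listed genes was 16.4%, here over 26 genes. On plain CPM, with genes chosen anew without FFZRX_139, it was 5.94%, also over 26 genes.

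**Figure D3:**
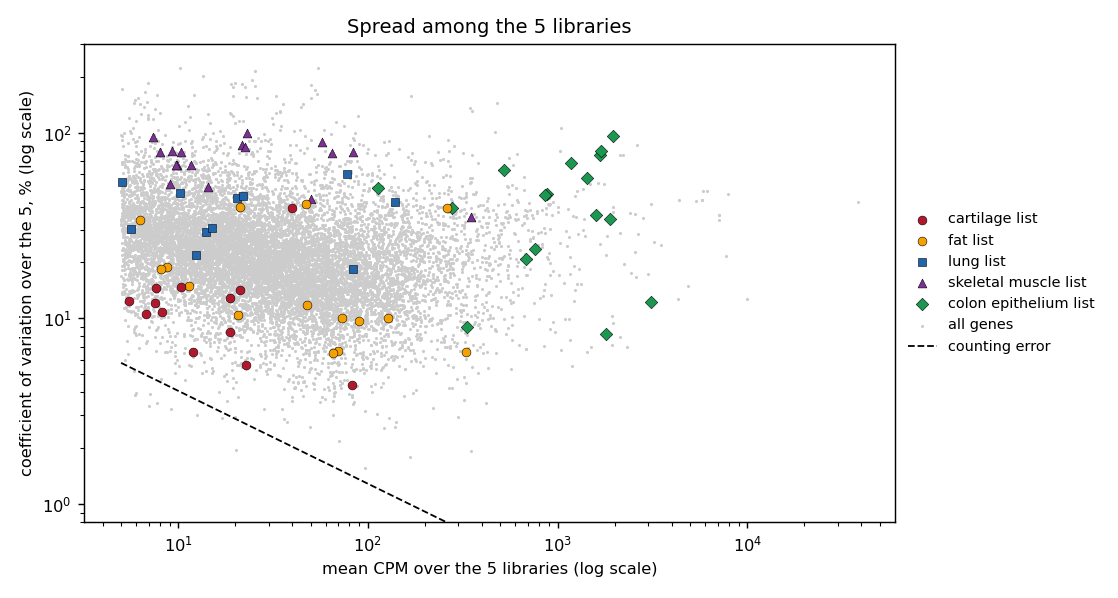
Coefficient of variation over the 5 libraries against the mean CPM, both on log scales, for all genes with a mean of 5 CPM or more (grey) and for members of 5 lists. The dashed line is the counting error alone, and most cartilage (red) and fat (orange) genes lie between it and the grey cloud's centre, while skeletal muscle genes (purple triangles) lie above the centre.

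Ratios between genes can be given without Col2a1, whose level chose the libraries; the pairs were chosen after their values were seen. There were 3.25 to 3.70 counts of Lep for each count of Col9a1 in the 5, with a CV of 4.77%. The ratio of Lep to Col11a1 was 2.74 to 3.09, lowest in the capsule library FFZRX_139, with a CV of 5.83%. The ratio of Oc90 to Col11a1 was 0.411 to 0.446, with a CV of 3.20%, and that of Hp to Col11a1 was 2.68 to 3.33, with a CV of 10.1%. Club cell and muscle genes varied more against the same partner, with a CV of 38.4% for Scgb1a1 and 78.3% for Myh4.

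Skeletal muscle genes also had larger means in the 5, in 20 of 20, against 69.3% of all genes with a mean of 1 CPM or more in either. Their summed level was 452 to 1379 CPM in the 5 and 142 to 687 CPM in the 13, but their levels varied among the 5. Myh4, the fast myosin of muscle fibres, had 45.5 CPM in FFZRX_139 and 153, 55.3, 44.2 and 26.5 CPM in NCC_2, NCC_8, NCC_17 and NCX_124, against 0 to 63.3 CPM in the 13. Of 17 muscle genes with a mean of 5 CPM or more, 16 were highest in NCC_2 and 16 were lowest in NCX_124. Over all 12094 genes at that level, 12.5% were highest in NCC_2 and 8.20% were lowest in NCX_124.

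Epidermis genes had a larger mean in the 5 in 17 of 18, against the same 69.3% of all genes. Their summed level was 28.9 to 199 CPM in the 5 and 8.22 to 83.4 CPM in the 13. Hair keratins such as Krt71 had 5.36 CPM in FFZRX_139, and 0.130, 10.2, 21.1 and 0.135 CPM in NCC_2, NCC_8, NCC_17 and NCX_124. Krt25 had no count in NCC_2. Krt1, a keratin of the upper epidermis, had 46.2 CPM in FFZRX_139, 7.39, 10.05 and 8.17 CPM in NCC_2, NCC_8 and NCC_17, and 0.219 CPM in NCX_124. NCX_124 was lowest in 7 of 8 epidermis genes with a mean of 5 CPM or more, while its Col2a1 was the highest of the 5.

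Haemoglobin genes were steady among the 5 but not particular to them. Hbb-bs, a beta-globin of red blood cells, had 26.6 to 35.1 CPM in the 5 and 3.67 to 116 CPM in the 13, and the CV of 4 haemoglobin genes was 11.4% to 14.1%. Near-identical globin copies can share reads, so single values are uncertain.

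**Figure D4:**
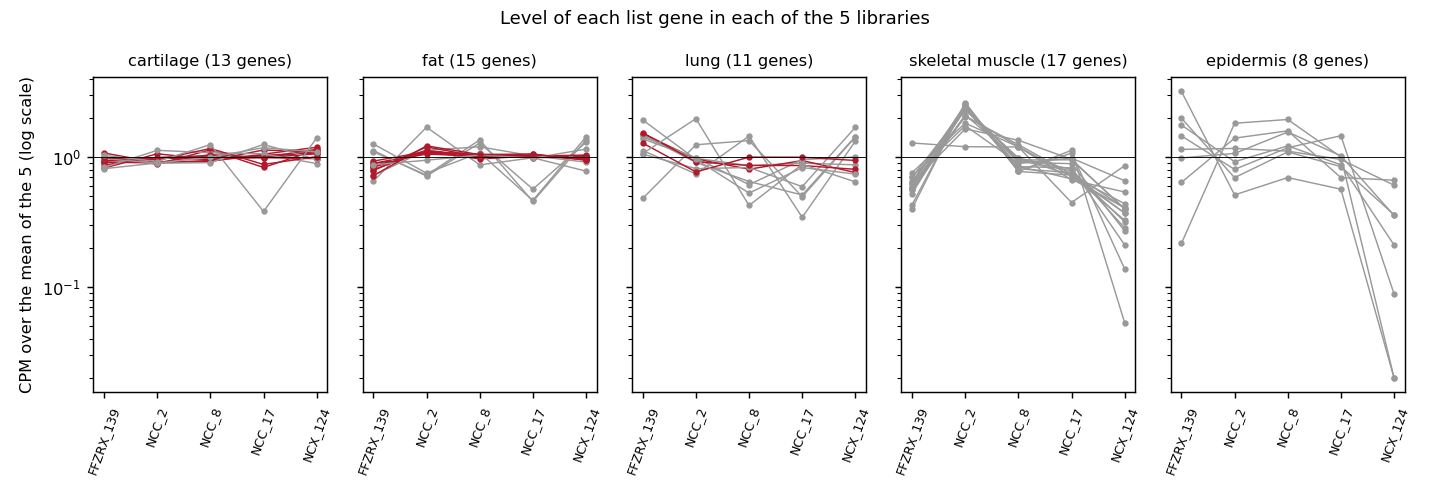
Level of each list gene with a mean of 5 CPM or more, divided by its mean over the 5 libraries, on a log scale, with FFZRX_139 left of the 4 saline libraries. Red lines are genes counted as higher, grey lines are the others, and values below 0.02 are drawn at 0.02. Red cartilage and fat lines stay near 1, while among the grey ones a cartilage gene falls to 0.382 and a fat gene to 0.456 in NCC_17; lung lines tend to be highest in FFZRX_139, and muscle lines peak in NCC_2 and are lowest in NCX_124.

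Within the 5, the capsule library FFZRX_139 was set beside the 4 saline ones. All 9 higher fat genes with a mean of 5 CPM or more were lower in FFZRX_139 than in each saline library, at 0.675 to 0.918 times the saline mean, and over the whole fat list 12 of 15 genes were. The summed fat list was lowest in NCC_17 at 1047 CPM, with 1137 CPM in FFZRX_139. The 9 higher cartilage genes had a median ratio of 0.924. The 3 higher lung genes Sftpc, Sftpb and Cxcl15 were higher in FFZRX_139 than in each saline library, with a median ratio of 1.74, and over the whole lung list 7 of 11 genes were, with ratios of 0.426 to 2.52. Of all 12094 genes with a mean of 5 CPM or more, 12.9% were lower in FFZRX_139 than in each saline library and 20.8% were higher. Krt6a and Krt16 were at 3.21 to 4.08 times the saline mean. With 1 capsule library there is no replicate, so capsule and saline were not compared by a test here.

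Over the same 30 genes, the median CV among the 4 saline libraries was 6.81%, against 21.6% over all genes with a mean of 5 CPM and 49.3% over the colon epithelium list. Where genes were chosen anew among saline libraries only, 4 against 2, it was 40.3% over 60 genes. For the 9 higher fat genes it was 5.25%, with 3 libraries from set C and 1 from set X. Between the pair of set X, FFZRX_139 against NCX_124, the 30 genes had a median ratio of 0.883.

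Sex-linked transcripts were examined since the sets differ in them. Set C had high Xist and low Y-linked genes in every library, and set X the reverse, as in female and male tissue. Sex is not labelled and is read from these transcripts only. In set C, Xist, the RNA of the inactive X chromosome, was 366 to 536 CPM in the 3 members and 200 to 510 CPM in the other 6. The Y-linked genes Ddx3y, Eif2s3y, Kdm5d and Uty summed to 11.2 to 12.2 CPM in the 3 and to 0.820 to 4.22 CPM in the 6, without overlap. Among the 6 the sum was 1.97 to 4.22 CPM in the 3 with Sftpc and 0.820 to 1.24 CPM in the 3 without. In set X, Xist was 7.86 to 8.95 CPM in the 2 members, 6.49 to 9.89 CPM in the 3 other libraries with Sftpc, and 0.787 to 3.41 CPM in the 4 without. The Y-linked sum in set X was 165 to 211 CPM in the 2 and 76.4 to 192 CPM in the other 7, with overlap.

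**Figure D5:**
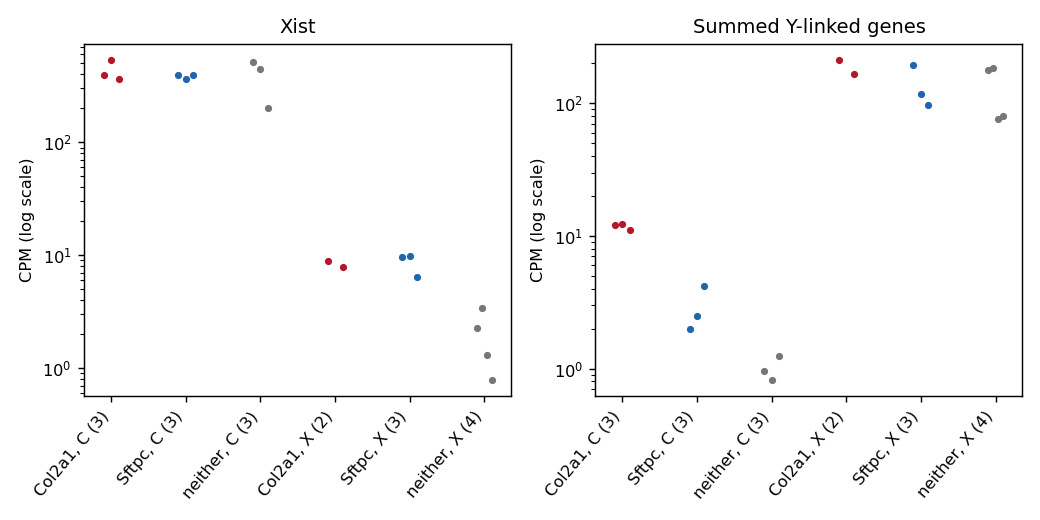
Xist (left) and the sum of 4 Y-linked genes (right) in CPM on log scales, by set, for the Col2a1 libraries (red), other libraries with Sftpc (blue) and libraries with neither (grey), with the number of libraries in brackets. In set C the 3 red points of the Y-linked sum lie above all others, and in set X the red and blue points of Xist lie above the grey ones.

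The labelled treatments can be compared within each set, and all 3 saline libraries of set C were members while no capsule or tea library of set C was. The direction of the 116 genes there is therefore fixed by how they were chosen. Their calls and p-values in set C, for capsule and for tea, come from libraries that also chose them. They are given as description and are no evidence about the 116 as a group. Capsule against saline in set C gave 23 of 20964 genes past an adjusted p of 0.05 by edgeR's quasi-likelihood test, 0.11% of the genes tested, and all 23 were lower in capsule. Of the 116 genes, 16 were among them. Hp had a log2 fold change of -6.50 ± 0.47 (SE, adjusted p = 0.00348 by edgeR) and H19 of -6.55 ± 0.89 (adjusted p = 0.0470). Lipe, hormone-sensitive lipase, had -2.39 ± 0.27 (adjusted p = 0.0214) and Col11a2 -2.95 ± 0.30 (adjusted p = 0.0138). Col9a1, Acan, Matn1, Oc90, Otor, Cd36, Sftpc, Cxcl15, Trarg1, Ntrk2, Nnmt and Adhfe1 were the others.

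Col2a1, whose level chose the libraries, and Lep, 1 of the 116, did not pass, with adjusted p of 0.119 and 0.213 by edgeR. Neither overlapped between capsule and saline, which is fixed by how the libraries and genes were chosen. The log2 ratio of group means had a median of -4.69 over the 116 genes, with 30 of them at 0 in capsule and set to a floor of 3 counts per library, against -0.08 over all genes at 1 CPM or more. Leaving out 1 library moved the 23 calls to between 2 and 240. It was 2 without any one of the saline libraries, 6 without FFZRC_5, 3 without FFZRC_12 and 240 without FFZRC_24.

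Tea against saline in set C gave 0 calls of 20964 by edgeR (0%), with 668 genes at an unadjusted p under 0.05, 90 of them among the 116. DESeq2 called 159 genes and limma on log2(FPKM + 0.1) called 99. The median log2 ratio of the 116 genes was -3.40, against -0.06 over all genes. Hp and Col11a2 had log2 fold changes of -4.04 ± 0.42 and -3.00 ± 0.30 (adjusted p = 0.0623 for both by edgeR). The 2 comparisons share the saline libraries.

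In set X the members were split over the treatments, with 1 capsule, 0 tea and 1 saline library. Capsule against saline gave 0 calls of 20889 by edgeR (0%), with 2014 genes at an unadjusted p under 0.05 and 205 called by DESeq2. The filter on counts kept 94 of the 116 genes in set X and all 116 in set C. Col2a1, Otog, Tectb and Krt6b were among those left out in set X. None of the 94 tested genes of the 116 was at an unadjusted p under 0.05, and the median log2 ratio of the 116 was -0.10, against 0.03 over all genes. Both follow largely from the choice of the genes, which gives each of these groups 1 high library and a wide spread. Tea against saline in set X gave 0 calls by edgeR (0%), with 3582 genes at an unadjusted p under 0.05, 1943 called by DESeq2 and a median log2 ratio of -3.17 over the 116, against -0.14 over all genes. That direction, too, is set by the choice of the genes, through the member NCX_124 among the saline libraries. Without NCX_124, that comparison held no member in either group and gave 540 calls. None of them was among the 116 genes, which follows largely from their choice as low outside the members.

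The capsule effect differed between the sets for 3 of 22380 genes by edgeR's test of the interaction (0.0134%), none of them among the 116. Of 1507 genes at an unadjusted p under 0.05 in that test, 63 were among the 116. The median difference in log2 fold change was 4.63 over the 116, against -0.04 over all genes. Both follow largely from membership, with 3 saline and 0 capsule members in set C and 1 of each in set X. One of the 3 called genes was the Y-linked Kdm5d, with a difference in log2 fold change of 4.12 ± 0.61 (SE, adjusted p = 0.0450 by edgeR). It belongs to the sex-linked transcripts described above. In a difference between the sets, set and the sex read from these transcripts cannot be told apart. The tea effect differed for 0 genes (0%), with 1346 at an unadjusted p under 0.05 and 118 called by DESeq2.

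The share of members differed with treatment in these 18 libraries, and a difference in the 116 genes between tea and saline in either set, or between capsule and saline in set C, cannot be told apart from which libraries carried cartilage transcripts. In set X, capsule and saline each held 1 member of 3. Total counts moved with membership as well. The totals of 3 of the 5 libraries, NCC_8, NCC_17 and NCX_124, were below those of all 13, and the part of depth in the presence of these transcripts was not tested.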

How the data were processed

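Poly(A) RNA was captured from 5 µg of total RNA of colon, per the labels' protocols. The authors deposited a table with a whole-number read count and an FPKM value for each of 33977 genes and 18 libraries. Submitters' processing notes list cutadapt 1.9, HISAT2 2.0.4, StringTie 1.3.4d and edgeR without their roles, and a human build, while 33866 identifiers in the table were found in the mouse GENCODE annotation of GRCm38 and 30908 of them at the same coordinates. Strand use in counting is not stated there, so reads of overlapping or antisense genes cannot be told apart.

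CPM was computed as the deposited count over the column total. The gene lists, the threshold and the rules for calls and named genes were chosen with earlier results of these data known. Genes named are the markers Col2a1, Lep, Hp, Adipoq and Sftpc, up to 5 higher genes by mean CPM from each list, the 20 highest means outside the lists, genes lower in the 5, the 3 lowest and 3 highest CVs, and sex-linked and colon genes as levels. Other list members were named as examples of the lists after their values were seen, and some genes are not reported here.

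Labelled comparisons used edgeR 4.0.16 in R 4.3.3 on the counts of the 9 libraries of a set, with TMM scaling, filterByExpr (minimum count 10), the quasi-likelihood test and Benjamini-Hochberg adjustment over all genes at 0.05. The interaction used all 18 libraries. Each standard error is the size of the log2 fold change divided by the root of F, and adds nothing to the test. DESeq2 1.42.0 and limma 3.58.1 (on log2 of deposited FPKM plus 0.1 or 1) were alternatives. The selection of genes and the edgeR fits were run on simulated counts with known changes, where genes varied independently. That checked the code only and says nothing about these libraries. Depth was 59206980 to 76830278 counts per library, and floors cover counting error only.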

Additional observations from a re-analysis of the deposited data

Results flagged for a closer look

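Of 53 genes checked among the 5 libraries, 6 had 1 library far from the others (Dixon's test at 95%), and in each it was FFZRX_139 on the high side. Chance flags about 1 in 20 groups, and genes of 1 tissue are not independent. In FFZRX_139, Bpifa1, an airway secretory protein, had 13.5 CPM against 0.236 to 0.588 CPM in the 4 saline libraries. Sftpb had 23.4 CPM against 12.2 to 14.0 CPM, and Cxcl15, a lung chemokine, 8.51 CPM against 4.27 to 5.44 CPM. The squamous keratins Krt6a, Krt16 and Krt6b had 14.7, 13.8 and 8.12 CPM in FFZRX_139, against highest values of 5.40, 5.16 and 1.83 CPM in the 4 saline libraries.

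The Y-linked gene Kdm5d had a capsule effect that differed between the sets, by 4.12 ± 0.61 on the log2 scale (SE, adjusted p = 0.0450 by edgeR's interaction test). In set C it had 0.105 to 0.143 CPM in the 3 capsule libraries and 1.87 to 2.35 CPM in the 3 saline libraries. The 3 saline libraries are those with cartilage transcripts, and the part of these in the difference was not tested.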

How the results depend on the processing

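The count of 116 higher genes was 100 with TMM scaling and stayed within 1.5 times in 13 of 20 alternatives. It was 72 with deposited FPKM, 224 within set X, 611 among saline libraries only, 186 with no minimum mean, 54 with a minimum of 5 CPM, 77 at 10-fold and 197 against the 7 libraries without Sftpc, and 113 to 126 with 1 member left out. The single lower gene became 105 within set X, 94 among saline libraries, 3 against the 6 libraries with Sftpc, 5 among libraries under 12% mitochondrial counts, and 1 to 2 with 1 member left out. The median CV of 10.5% was 16.4% with TMM scaling, 40.3% with genes chosen anew among saline libraries only, 39.1% over all listed genes and 5.94% to 11.7% with 1 member left out. For capsule against saline in set C (23 calls), DESeq2 gave 406, limma with 0.1 and 1 added gave 222 and 135, a joint fit of 18 libraries gave 6, and leaving out 1 library gave 2 to 240. For tea in set C (0) these were DESeq2 159, limma 99 and 66, and 0 to 11. For capsule in set X (0) they were DESeq2 205, limma 5 and 1. For tea in set X (0) they were DESeq2 1943, limma 1 and 1, joint fit 448, and 0 to 540. For the interactions, capsule (3) gave DESeq2 143, limma 85 and 34 and 0 to 10, and tea (0) gave DESeq2 118, limma 1 and 1 and 0 to 1. Where leaving out a library left a group with 2, the spread was pooled over groups. The causes were not tested. No paired analysis was possible because the labels give the groups no shared replicate numbers. Comparisons against few libraries count more genes by construction. The alternatives on Sftpc, JHHCGC_7, mitochondrial counts and all listed genes were chosen after seeing the data.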
